A study of Caenorhabditis elegans with 2 samples.

Results

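Mitochondrial chaperones, proteases and prohibitins keep proteins folded, or remove them, inside the mitochondrion. Peak summits of DVE-1 were described at 10 genes that encode such proteins, out of 19973 nuclear protein-coding genes of Caenorhabditis elegans. The genes were listed by the known roles of their products: the chaperones hsp-6, hsp-60, Y22D7AL.10 and dnj-10, the proteases lonp-1, spg-7, ymel-1 and clpp-1, and the prohibitins phb-1 and phb-2. All 10 symbols matched a gene of Ensembl release 115 (assembly WBcel235, the same sequence as ce11). The rule that chose them uses no measured value, but the list was made with earlier results of these data known. For each gene, every peak summit within 5 kb of the annotated gene was collected. The promoter window of a gene covered the 1000 bp before its 5′ end and the 200 bp after it.

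The data came from chromatin immunoprecipitation and sequencing (ChIP-seq) with an anti-GFP antibody in late embryos of strain OP398, whose genotype is given as unc-119(tm4063) III; wgIs398. These transgenic hermaphrodites carry DVE-1 with GFP and FLAG at its C-terminal end, and whole animals were used, so sites bound in any tissue add up. There was 1 group of 2 biological replicates, and the labels give no mitochondrial stress, so the lists describe embryos with no stated treatment and hold no comparison between conditions. The wgIs398 insertion adds tagged DVE-1, and the stated genotype names no change in the dve-1 gene itself. Whether untagged DVE-1 was also present was not measured in these lists.

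When unfolded proteins build up in mitochondria, C. elegans cells raise the transcription of nuclear genes for mitochondrial chaperones and proteases, a program called the mitochondrial unfolded protein response. DVE-1 is a homeodomain protein that is required for this program and gathers in nuclei under mitochondrial stress, where it acts with the ubiquitin-like protein UBL-5 and alongside the transcription factor ATFS-1. Reporters of the hsp-6 and hsp-60 promoters are the standard readouts of the response in this animal.

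The description rests on 4 peak lists. The thresholded list holds 1447 peaks that the authors kept after IDR, a method that scores how alike peaks rank in replicates. The pooled list holds 30000 peaks and background regions from both replicates together, and the replicate lists hold 11568 (replicate 1) and 15750 (replicate 2). All 1447 thresholded peaks were the strongest 1447 of the pooled list. A place in the thresholded list thus does not by itself show a peak in both replicates. Of its 1440 nuclear peaks, 1429 were met in both replicate lists. Each peak carries a signal, the authors' own enrichment value, which was compared within a list only, and its rank, with 1 for the strongest. Signals ran from 78.9 to 917 in the thresholded list, from 19.1 in the pooled list, from 15.3 in replicate 1 and from 15.5 in replicate 2. A summit in the pooled or a replicate list can be background and is not a call of binding. Replicate 1 also held 21 peaks on the mitochondrial genome, replicate 2 held 0, the pooled list 12 and the thresholded list 7. No such peak was placed at a gene here, though the ranks count them. The number of reads in each library is unknown.

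The DVE-1 signal at the promoters of these genes was uneven. Strong summits lay upstream of the chaperonin pair hsp-60 and Y22D7AL.10 and of the prohibitin gene phb-2, a weaker one recurred upstream of the Hsp70 gene hsp-6, and the other 6 genes had weaker ones, with pooled ranks from 6770 (spg-7) to 22978 (lonp-1). A thresholded summit fell in the window of 3 of the 10 genes (hsp-60, Y22D7AL.10 and phb-2), against 4.33% of all nuclear protein-coding genes. These 3 genes rested on 2 summits, because hsp-60 and Y22D7AL.10 shared one. In the pooled list all 10 genes had a summit in the window, against 41.5% of all genes. Replicate 1 gave a window summit for 9 genes, all but lonp-1, against 22.5% of all genes. Replicate 2 gave one for 5 genes, hsp-6, hsp-60, Y22D7AL.10, spg-7 and phb-2, against 26.8%. The same 5 genes had a window summit in both replicates, against 16.2% of all genes. The counts stand beside these shares without a test.

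**Figure D1:**
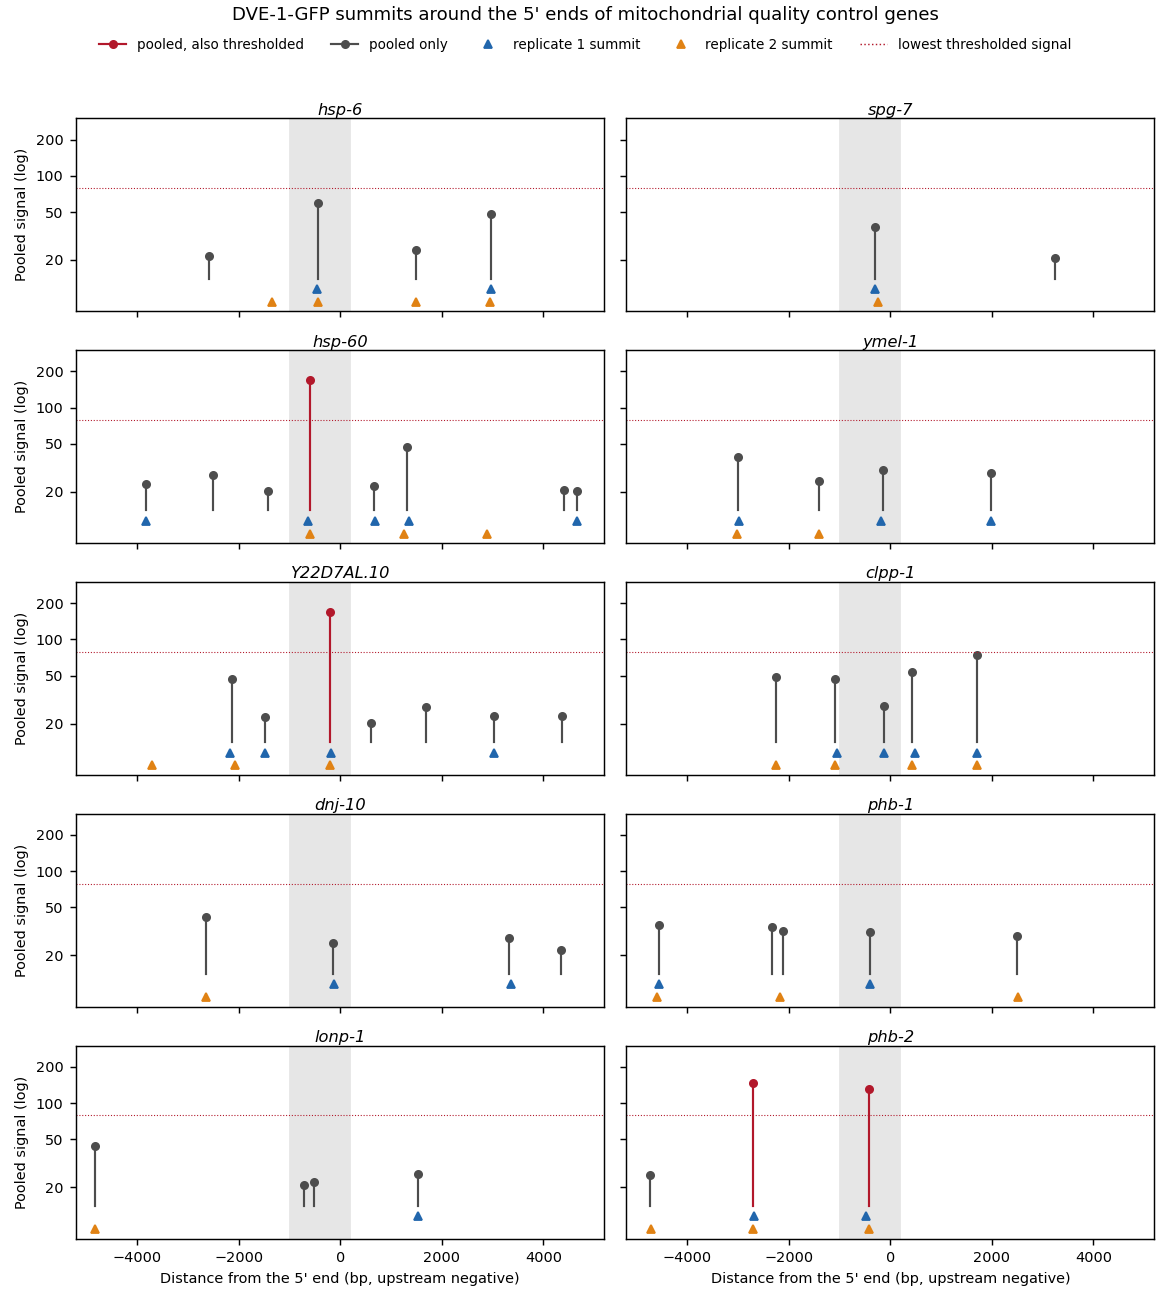
Summits around the 5′ end of each of the 10 genes. The x axis is the distance from the 5′ end in bp, with upstream negative, and the y axis is the pooled signal on a log scale; stems are pooled summits (red where the peak is also thresholded), triangles mark the summits of replicate 1 (blue) and replicate 2 (orange), the shaded band is the promoter window and the dotted line is the lowest thresholded signal, 78.9. Red stems stand in the windows of hsp-60, Y22D7AL.10 and phb-2, and phb-2 has another at 2704 bp upstream.

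The sequences around the summits of hsp-60 and Y22D7AL.10, phb-2 and hsp-6 are shown because these were the strongest window summits of the 10 genes. Each runs from 100 bp on one side of the pooled summit to 100 bp on the other, 5′ to 3′ on the plus strand of ce11 (RefSeq WBcel235), with the letters CCAAT in capitals. They are chrIII:1619037-1619237 between hsp-60 and Y22D7AL.10, chrII:6250883-6251083 upstream of phb-2, and chrV:4827094-4827294 upstream of hsp-6.
hsp-60 and Y22D7AL.10: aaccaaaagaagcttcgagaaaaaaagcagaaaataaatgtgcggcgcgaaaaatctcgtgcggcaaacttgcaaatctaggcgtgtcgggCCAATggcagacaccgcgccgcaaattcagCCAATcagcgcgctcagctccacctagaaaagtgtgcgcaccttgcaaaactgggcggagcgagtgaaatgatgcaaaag
phb-2: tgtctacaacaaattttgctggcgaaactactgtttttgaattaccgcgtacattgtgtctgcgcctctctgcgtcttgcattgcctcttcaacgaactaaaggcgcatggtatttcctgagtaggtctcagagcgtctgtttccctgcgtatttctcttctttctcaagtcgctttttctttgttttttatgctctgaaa
hsp-6: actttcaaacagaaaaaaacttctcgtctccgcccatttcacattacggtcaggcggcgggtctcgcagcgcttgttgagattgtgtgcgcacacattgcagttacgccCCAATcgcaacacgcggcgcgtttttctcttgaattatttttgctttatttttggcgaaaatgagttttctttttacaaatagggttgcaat
The shared chaperonin sequence held 2 CCAAT, centred 7 bp to the left and 23 bp to the right of the summit, the hsp-6 sequence held 1, centred 11 bp from the summit, and the phb-2 sequence held 0 on either strand.

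hsp-60 (WBGene00002025) encodes the mitochondrial chaperonin, the barrel in which imported proteins fold, and Y22D7AL.10 (WBGene00021248) encodes its lid, the 10 kDa heat shock protein HSP10. The genes stand head to head on chromosome III, hsp-60 at 1619742 to 1625803 on the plus strand and Y22D7AL.10 at 1617151 to 1618929 on the minus strand, with 812 bp between them. Their common summit, at position 1619137 in this intergenic stretch, had a signal of 169 in the thresholded and pooled lists, rank 246. It lay 605 bp upstream of hsp-60 and 208 bp upstream of Y22D7AL.10. Replicate 1 placed it 27 bp away, with a signal of 51.5 (rank 578), and replicate 2 placed it at the same base, with a signal of 120 (rank 157). Both replicates ranked it far above their medians of 19.7 and 21.0, and 0.521% of all genes (104 genes) had a stronger pooled window summit. Which of the genes the summit serves cannot be told from position, and Y22D7AL.10 has the nearer 5′ end.

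Around the chaperonin pair, 8 pooled summits lay within 5 kb of hsp-60 and 9 within 5 kb of Y22D7AL.10, against a median of 4 over all genes. The next strongest was in an intron of hsp-60, 1318 bp downstream of its 5′ end, with a pooled signal of 47.0 (rank 4080). Replicate 1 had a summit at 1354 bp there with a signal of 17.4, and replicate 2 one at 1255 bp with a signal of 32.3. The other pooled summits near hsp-60 had signals of 20.3 to 27.6, and none of them was thresholded. The gene beyond hsp-60 is Y22D7AL.4, a TFIID subunit, and the gene beyond Y22D7AL.10 is Y22D7AL.9, a tetratricopeptide repeat protein.

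hsp-6 (WBGene00002010; chromosome V, 4824124 to 4826760, minus strand) encodes mitochondrial Hsp70, which pulls proteins through the import channel and folds them in the matrix. Its window summit had a pooled signal of 59.2 (rank 2572), below the lowest thresholded signal of 78.9. Replicate 1 gave it a signal of 23.7 (rank 3592) and replicate 2 a signal of 36.1 (rank 2445), with the replicate summits 29 bp apart. The summit was thus found in both replicates, 434 bp upstream of hsp-6 in the pooled list, and 7.40% of all genes had a stronger window summit. It lay within the non-coding RNA genes C37H5.15 and C37H5.16. It also lay 166 bp upstream of C37H5.5, which encodes a homolog of nucleolar complex protein 3 and points away from hsp-6 across a gap of 599 bp. The 5′ end of C37H5.5 is thus nearer than that of hsp-6. Which of these genes the summit serves cannot be told from position.

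Of the 6 pooled summits within 5 kb of hsp-6, the one in its window was the strongest. The next had a pooled signal of 48.1 (rank 3871), 2958 bp downstream, in the window of adss-1, the adenylosuccinate synthetase gene that follows hsp-6. In replicate 1 the order differed, with 27.9 (rank 2442) at the adss-1 summit and 23.7 at the hsp-6 summit. In replicate 2 the adss-1 summit had 17.7 and the hsp-6 summit 36.1.

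dnj-10 (WBGene00001028; chromosome III, 8631165 to 8633565, plus strand) encodes a mitochondrial DnaJ protein, a co-chaperone of the kind that drives Hsp70. Its window summit, 151 bp upstream in intergenic sequence, had a pooled signal of 25.2 (rank 17148). Replicate 1 had a summit there with a signal of 16.8 (rank 9074), with 21.6% of that list weaker, and replicate 2 had none. The strongest pooled summit within 5 kb was elsewhere, 2650 bp upstream, with a signal of 41.9 (rank 5211) in the windows of gpr-1, a G-protein regulator, and polk-1. It appeared in replicate 2 with 24.7 and not in replicate 1. Downstream of dnj-10 lies twk-7, a potassium channel gene on the other strand.

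**Figure D2:**
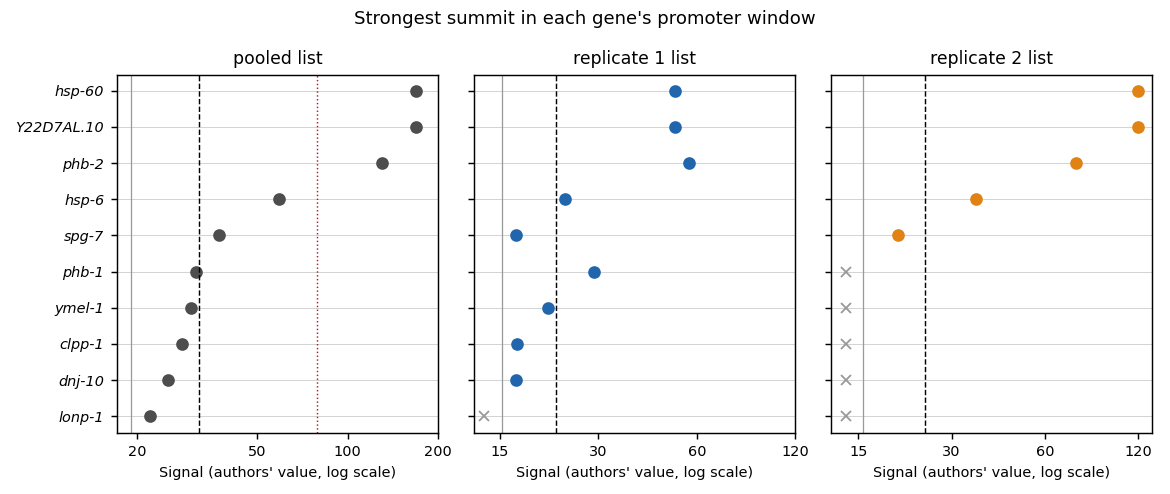
Signal of the strongest summit in each gene's promoter window, by list. Each panel is 1 list, with the signal on a log scale on the x axis and 1 point per gene; crosses are genes with no summit in the window, the grey line is the lowest signal of the list, the dashed line the median over all genes with a window summit and the dotted red line of the pooled panel the lowest thresholded signal. The points for hsp-60, Y22D7AL.10 and phb-2 lie far right in all 3 panels, and 5 genes have a cross in replicate 2.

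The 4 protease genes had no thresholded summit within 5 kb, and their window summits were weaker than that of hsp-6. spg-7 (WBGene00004978; chromosome I, 3467132 to 3478517, plus strand) encodes an AFG3-like subunit of the AAA protease of the inner membrane that faces the matrix. Of the 4 protease genes, it alone had a window summit in both replicates. The pooled signal was 37.4 (rank 6770) at 311 bp upstream, the replicate 1 signal 16.9 (rank 8908) and the replicate 2 signal 20.2 (rank 8673). The replicate summits were 65 bp apart. Over 1429 thresholded peaks met in both replicates the median distance was 22 bp. The thresholded summits of the chaperonin pair (27 bp) and phb-2 (53 bp) lay above it. The distances at hsp-6 (29 bp) and spg-7 were also larger. Those summits are not thresholded, and no median was taken over peaks of their strength. The site is in an intron of a protein-coding gene on the other strand that overlaps the spg-7 5′ end. The nearest genes that do not overlap spg-7 are msh-6, a mismatch repair gene, and Y47G6A.9, an RNA polymerase III subunit gene. A summit of about the same pooled signal, 39.0, lay 14432 bp downstream of the spg-7 5′ end in the window of crn-1, with 25.2 in replicate 2. Replicate 1 had none at that place, and one of 16.7 at 14722 bp, also in the crn-1 window.

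ymel-1 (WBGene00010842; chromosome III, 10416139 to 10421757, plus strand) encodes the inner membrane AAA protease that faces the intermembrane space. Its pooled window signal was 30.1 (rank 11334) at 137 bp upstream, with 21.0 (rank 4878) in replicate 1 and no summit in replicate 2. The summit was in the 251 bp between ymel-1 and M03C11.3, a gene for a PH domain protein on the same strand, and M03C11.6 lies downstream. A stronger pooled summit, 39.1 (rank 6058), lay in a coding exon of M03C11.3, 2992 bp upstream of ymel-1, and had 18.6 in replicate 1 and 20.4 in replicate 2.

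lonp-1 (WBGene00016391; chromosome I, 10676922 to 10682374, minus strand) encodes the Lon protease of the matrix, which degrades damaged and unassembled proteins. Its window held 2 pooled summits, with signals of 22.0 (rank 22978) at 513 bp upstream and 21.0 (rank 25166) at 712 bp upstream. These were the weakest window summits of the 10 genes, and neither replicate list had one in the window. Both lay at spcs-1, a signal peptidase complex subunit gene that ends 97 bp upstream of lonp-1 on the same strand: the nearer lay 161 bp inside spcs-1, in a coding exon, and the farther 38 bp upstream of its 5′ end. The strongest pooled summit within 5 kb, 44.0 (rank 4681), was 4838 bp upstream, in the windows of kbp-5 and ndua-13, with 27.4 (rank 4388) in replicate 2. Replicate 1 had none there. The gene that follows lonp-1 is ttc-1, a tetratricopeptide repeat gene.

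clpp-1 (WBGene00014172; chromosome II, 10300714 to 10302842, minus strand) encodes ClpP, the proteolytic chamber of the matrix ClpXP protease. Its pooled window signal was 28.2 (rank 13184) at 126 bp upstream, between clpp-1 and vha-9, a proton pump subunit gene 207 bp away. Replicate 1 had 17.0 (rank 8735) there and replicate 2 had no summit. The summit also fell in the window of a tRNA gene, WBGene00014638, 738 bp upstream of it. All 4 other pooled summits within 5 kb of clpp-1 were stronger than the one in its window. The strongest, 73.8 (rank 1641), was 1701 bp downstream, in an intron of clpp-1 and in the window of mdt-22, a Mediator subunit gene. It had 35.9 (rank 1368) in replicate 1 and 35.0 (rank 2630) in replicate 2.

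The next summit at clpp-1 lay just outside the window, 429 bp downstream of the 5′ end, on the tRNA gene WBGene00014635 inside a clpp-1 intron. Its pooled signal was 53.5 (rank 3118), with 19.0 in replicate 1 and 27.8 in replicate 2. A summit of 48.3 (rank 3829) lay 2245 bp upstream in an intron of gcy-4 and in the windows of WBGene00014636 and WBGene00014637. It had 29.0 in replicate 2, and replicate 1 had none there. Another, of 47.1 (rank 4066), lay 1094 bp upstream, outside the clpp-1 window by less than 100 bp and inside those of vha-9 and ZK970.10. The clpp-1 locus thus had stronger DVE-1 summits than its window value shows, each at another annotated gene. The nearest gene downstream is nep-26, a neprilysin gene.

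The prohibitins PHB-1 and PHB-2 assemble in alternation into rings in the inner membrane, where they hold membrane proteins and the matrix-facing AAA protease. A thresholded summit lay in the window of phb-2 and not in that of phb-1. phb-2 (WBGene00004015; chromosome II, 6251411 to 6252780, plus strand) had a thresholded summit 428 bp upstream with a signal of 130.5 (rank 468). Its signal was 56.9 (rank 434) in replicate 1 and 75.5 (rank 555) in replicate 2, and the replicate summits were 53 bp apart. It was the strongest window summit of the 10 genes in replicate 1, while the shared chaperonin summit was stronger in replicate 2 and in the pooled list. The summit lay in the 566 bp between phb-2 and T24H7.2, in no other gene's window, and 1.22% of all genes had a stronger pooled window summit.

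Another thresholded summit, slightly stronger, stood 2704 bp upstream of phb-2 in an intron of T24H7.2, which encodes hypoxia up-regulated protein 1, a large Hsp70-related chaperone in mammals. Its signal was 148 (rank 336), with 55.5 (rank 471) in replicate 1 and 89.2 (rank 354) in replicate 2. This summit lay in the window of the small nucleolar RNA gene T24H7.6. A further pooled summit, 25.3, lay 4732 bp upstream, so phb-2 had 3 pooled summits within 5 kb, below the median of 4. F13H8.5 overlaps phb-2 on the other strand away from the 5′ end, and F13H8.11, a lipase gene, lies 4832 bp downstream.

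phb-1 (WBGene00004014; chromosome I, 2071352 to 2072547, plus strand) had no thresholded summit within 5 kb. Its window summit, 406 bp upstream, had a pooled signal of 31.4 (rank 10248). Replicate 1 ranked it higher, with 29.0 (rank 2232), above the hsp-6 summit in that list, and replicate 2 had no summit in the window. The summit lay between phb-1 and Y37E3.8, which points away from it, and in the windows of both genes, of the small nucleolar RNA genes Y37E3.21 and Y37E3.22 and of the non-coding RNA gene Y37E3.27, 55 bp upstream of the last. The strongest pooled summits nearby were 35.5 (rank 7659) in an intron of arl-13, 4563 bp upstream, and 34.5 (rank 8217) in a coding exon of that gene, and eif-2alpha follows phb-1 downstream.

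Set among all genes with a pooled window summit, the 10 genes split. The strongest window signal had a median of 34.4 over the 10 genes and of 32.1 over all 8286 genes with one. With each shared summit counted once, a choice made after the data were seen, the medians were 31.4 over 9 summits and 31.0 over 7109. The values of 5 genes (hsp-60, Y22D7AL.10, phb-2, hsp-6 and spg-7) lay above the median of all genes and those of the other 5 below it. Stronger window summits were found in 16.3% of all genes for spg-7, 21.5% for phb-1, 22.7% for ymel-1, 24.9% for clpp-1, 29.2% for dnj-10 and 35.0% for lonp-1. In replicate 1 the median was 23.7 over 9 genes and 22.2 over all genes with a summit. In replicate 2 it was 75.5 over 5 genes and 24.6 over all genes with a summit. Counted once, the medians were 22.3 over 8 summits and 21.6 over all in replicate 1, and 55.8 over 4 summits and 23.8 over all in replicate 2. As a group, the genes thus had a pooled median near that of other genes with a summit, and the high values were those of hsp-60, Y22D7AL.10 and phb-2.

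**Figure D3:**
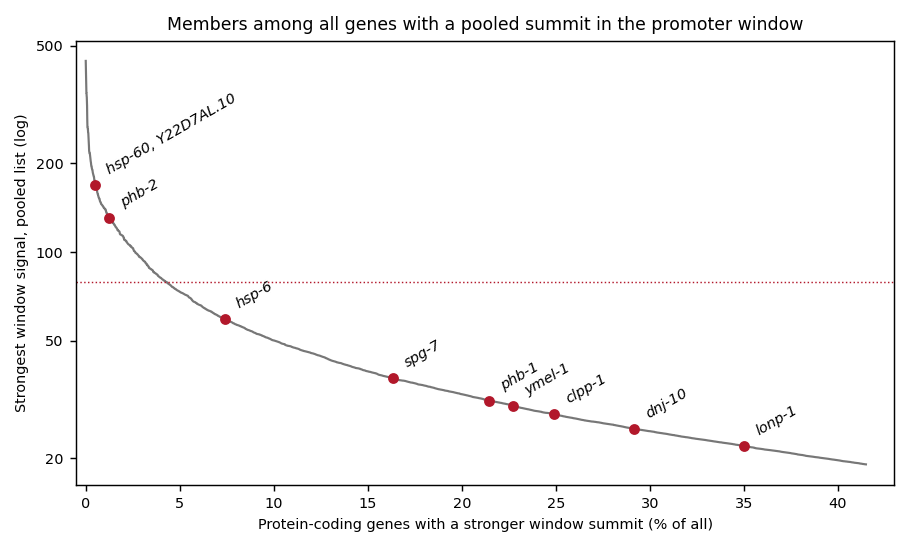
Strongest pooled window signal of every gene that has one, in falling order. The x axis is the percent of all protein-coding genes with a stronger window summit, the y axis the pooled signal on a log scale, and the dotted line the lowest thresholded signal; red points are the 10 genes. The shared chaperonin summit and phb-2 lie in the steep left end, hsp-6 follows at 7.40%, and the others spread from 16.3% to 35.0%.

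The strongest window summits of all 10 genes lay upstream of the 5′ end, from 126 bp for clpp-1 to 605 bp for hsp-60, with a median of 358.5 bp. Over all genes with a pooled window summit, 86.8% had it upstream and the median was 336 bp. In 5 genes (hsp-6, hsp-60, Y22D7AL.10, lonp-1 and phb-1) the summit also lay in the window of another protein-coding gene, against 28.8% of all genes with one. Of these 5, hsp-60 and Y22D7AL.10 shared the same summit with each other, so it was counted for both. The window summit was the strongest pooled summit within 5 kb for 3 of the 10 genes, hsp-6, hsp-60 and Y22D7AL.10, which rest on 2 summits, against 38.7% of all genes with a pooled window summit.

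Sequence around the strongest pooled summit in each gene's promoter window, 100 bp on each side, was searched on both strands for 12 short motifs, at 9 distinct summits. CCAAT, the box known to be bound by the NF-Y complex, was present at 4 of the 9 (the shared chaperonin summit, hsp-6, lonp-1 and spg-7), against 25.8% of thresholded and 35.5% of pooled summits. The shared chaperonin summit held 2; 4.31% of thresholded summits had 2 or more, a count chosen after the sequences were seen. TGATGNAAT, the composite site type of ATF4 and CHOP in mammals, was present at phb-1, 24 bp from the summit, against 0.833% of thresholded and 1.25% of pooled summits. Only these exact letters were searched. The shared chaperonin sequence held TGATGCAAA near its right end, which departs from them in the last letter. How often such near matches occur was not counted at any summit. TAATTA, a core of many homeodomain sites, was also present at phb-1 alone among the 9, against 2.78% and 7.68%. A match is a string of letters and shows no binding of any factor.

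GAANNTTC, a pair of inverted heat shock units, was present at the shared chaperonin summit and at clpp-1, at least 88.5 bp from the summit, against 7.71% of thresholded and 13.1% of pooled summits. TTTCAG, the letters of a trans-splice acceptor, was present at 4 summits (clpp-1, lonp-1, phb-2 and ymel-1), against 12.6% and 30.7%, and it overlaps GAANNTTC at clpp-1. GAGAGA was present at lonp-1, against 34.9% and 17.4%. None of the 9 held the CRE site TGACGTCA (0.903% of thresholded and 1.11% of pooled summits), the AP-1 site TGANTCA (3.19% and 5.41%), the E-box CACGTG (4.65% and 3.79%), the GATA site TGATAA (8.19% and 19.9%), the TATA box TATAAA (9.51% and 18.3%) or the telomere-like repeat of TTAGGC (18.1% and 2.34%). The share of G and C was 50.7% at the shared chaperonin summit, 44.3% at hsp-6, 43.8% at ymel-1 and 42.8% at phb-2. It was 38.8% at lonp-1, 37.8% at spg-7, 34.8% at clpp-1, 34.3% at phb-1 and 32.3% at dnj-10. The median was 45.8% for thresholded and 37.3% for pooled summits.

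Other genes of mitochondrial quality control were taken from a list of 15 symbols, of which 12 could be used: 2 matched no gene and 1 names a gene of another function. A thresholded summit fell in the window of 1 of the 12, against 3 of the 10 genes above and 4.33% of all genes. It belonged to immt-1, a subunit of the MICOS complex that shapes the inner membrane, with a signal of 121 (rank 579) at 140 bp upstream, and with 71.9 (rank 224) in replicate 1 and 47.5 (rank 1463) in replicate 2. In the pooled list 4 of the 12 had a window summit, against 41.5% of all genes, and in both replicates 5 of the 12 did, against 16.2%. ubl-5, whose product is the partner of DVE-1 named above, had a pooled signal of 74.5 (rank 1606) at 199 bp upstream, just under the lowest thresholded signal, with 37.4 in replicate 1 and 34.3 in replicate 2. mppb-1, a subunit of the presequence peptidase, had 73.6 (rank 1654), and haf-1, a peptide transporter of the inner membrane, had 34.4 (rank 8281). The 12 genes include ppgn-1, stl-1, mppa-1, bcs-1, immp-1, immp-2 and immt-2, which had no summit in the window in any of the 4 lists.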

How the data were processed

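The 2 biological replicates of DVE-1 ChIP-seq in late embryos were described from peak lists. The authors made them from the alignments of each replicate, or of both, and a control alignment, as the descriptions deposited beside them state. The signal of each peak is the authors' deposited enrichment value from column 7. The aligner, the peak caller and how IDR was set were not given in the sources used here. Lists in ce10 and the q-value column were not used.

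Summits (peak start plus the summit offset) were placed against the outermost 5′ end of each gene in Ensembl 115 and the RefSeq WBcel235 sequence with own code in Python 3.11.15, numpy 2.4.6, pandas 2.3.3 and matplotlib 3.10.9, tested on simulated summits of known position. Counts over the listed genes stand beside the same share of all nuclear protein-coding genes. No test was run: 1 group has no contrast, and lists give no read totals, so depth is unknown. The genes, the motifs and the further list were chosen with earlier results of these data known. Named genes are the 10 listed, those sharing a window summit with them, the nearest genes on either side, ubl-5 and further quality control genes with a thresholded summit; others were named after their values were seen. Alternatives varied the window, the 5′ end, the assignment of summits, the lists and the motif window.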

Additional observations from a re-analysis of the deposited data

How the results depend on the processing

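The count of genes with a thresholded window summit was 3 and lay between 2 and 3 under 8 alternatives. It was 2 with a window of 500 bp before and 100 bp after the 5′ end (3.29% of all genes) and with each summit given to the nearest 5′ end (3.15%), where hsp-60 was lost to Y22D7AL.10's nearer end in the latter case and by its distance in the former. The pooled count of 10 became 6 with nearest 5′ ends (35.1% of all genes), where hsp-6, hsp-60, lonp-1 and phb-1 were lost. It became 5 in the strongest 10000 peaks (21.1%). The list of replicate 2 alone gave 5 (26.8% of all genes) and that of replicate 1 alone gave 9 (22.5%), which repeats the counts by replicate given above. The count in both replicates, 5, lay between 3 and 7. It was 7 with the wider window of 2000 bp before and 500 bp after the 5′ end (24.4% of all genes). Here clpp-1 and ymel-1 were added. For ymel-1 the replicates had different sites, at 185 bp upstream in replicate 1 and 1413 bp upstream in replicate 2. No ymel-1 site thus recurred in that window. The count was 6 with the 5′ end of any transcript (18.2%) and 3 with both lists cut to their strongest 1447 (2.84%). With nearest 5′ ends it was 3 (12.3%), and hsp-6 and hsp-60 were lost. For the further quality control genes, the count of 1 became 2 with a window of 2000 bp before and 500 bp after the 5′ end (bcs-1 and immt-1; 6.19%). With 50 bp on each side of the summit, the shorter stretch held GAANNTTC at 0 summits in place of 2 (2.78% of thresholded and 6.44% of pooled summits), TAATTA at 0 in place of 1 (0.486% and 3.77%), GAGAGA at 0 in place of 1 (23.5% and 10.2%), TTTCAG at 1 in place of 4 (4.24% and 16.5%) and CCAAT at 4 as before (13.3% and 19.5%). No paired analysis was possible because there is 1 group. With 2 replicates, no control group in these lists and no read totals, signals carry no error, and the absence of a summit from a list sets no limit on binding.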

Other observations

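atad-3, whose product is an inner membrane AAA protein tied to mitochondrial DNA and cristae, had a window summit in each replicate and none in the pooled list. Replicate 1 placed it 394 bp upstream with a signal of 35.0 (rank 1442) and replicate 2 placed it 427 bp upstream with a signal of 42.5 (rank 1815). Among the 2000 strongest peaks of each replicate, 1329 nuclear peaks of replicate 1 overlapped one of replicate 2. Of these 1329, the atad-3 peak was the 1 that overlapped no pooled peak. This count was made after the values were seen, and the cause was not tested.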
